A study of Mus musculus with 89 samples.

Results

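The 10 genes described here handle iron in mouse cells and were taken by symbol, without use of their values: *Trf*, *Tfrc* and *Slc11a2* (uptake), *Fth1* and *Ftl1* (storage), *Slc40a1*, *Cp* and *Heph* (export), and *Aco1* and *Ireb2* (iron sensing). All 10 had a row among the 14964 genes of the Klotho table and among the 14440 genes of the hippocampal infusion table, 9 had one among the 13662 genes of the choroid plexus infusion table, and the 3 tables together held 16133 gene symbols. *Slc40a1* in choroid plexus was not analysed here.

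Bulk RNA-seq was compared between α-Klotho knockout mice (Klko, n = 4) and wild-type mice (WT-y, n = 4), all at 2 months of age, and between heterozygous α-Klotho mice (Klhet, n = 5) and wild-type mice (WT-o, n = 4), all at 9 months. α-Klotho is a kidney and choroid plexus protein whose loss in mice gives a syndrome that resembles early ageing, and the knockout and the heterozygous mice lacked both copies or 1 copy of it in the whole body, not in a chosen cell type. Aged wild-type male mice were injected repeatedly through the tail vein with serum of young mice (YS), with the same serum after its extracellular vesicles were removed (YDS) or with saline (sham), and choroid plexus (YS 12, YDS 14 and sham 8 libraries) and hippocampus (YS 14, YDS 14 and sham 10 libraries) were sequenced. The labels give the tissue of the infusion libraries but not the serum, which was read from the column headers of the deposited tables. By the animal numbers in those headers, all 34 choroid plexus mice were among the 38 hippocampus mice, each in the same arm, so the tissues are not independent sets of animals.

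Values are CPM, the reads of a gene scaled by its library's total, and 1 CPM stood for 26.3 to 40.2 reads in a Klotho library, 27.2 to 46.8 in a choroid plexus library and 23.2 to 40.8 in a hippocampal one. *Kl*, the targeted gene, lay at 2.90 to 23.3 CPM in Klko and 62.3 to 237 CPM in WT-y libraries, and at 15.6 to 128 CPM in Klhet and 127 to 256 CPM in WT-o libraries. The Klotho libraries are labelled brain, their protocol names cortex and the study names hippocampus. The summed CPM of 7 neuronal genes was 8934 to 12413 in the Klotho libraries, 11135 to 13986 in the hippocampal libraries and 10.5 to 355 in the choroid plexus libraries, where 12 genes of choroid plexus epithelium summed to 110756 to 242521 CPM. Those epithelial genes also summed to 249 to 8341 CPM in the Klotho libraries. The labels do not say whether the Klotho libraries came from separate litters, and each p-value measures the spread between these libraries.

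Iron enters most cells as ferric iron bound to transferrin, which the transferrin receptor takes into endosomes, from where a divalent metal transporter passes it to the cytosol. Cytosolic iron is stored inside ferritin, a shell of heavy and light chains, or leaves through ferroportin with the help of copper oxidases. When iron is scarce, the iron regulatory proteins bind hairpins called iron-responsive elements: a hairpin in a 5' UTR blocks translation of ferritin and ferroportin mRNA, and hairpins in the 3' UTR of the receptor's mRNA protect it from decay. In brain, *Trf* is made mostly by oligodendrocytes and choroid plexus epithelium.

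The hairpins are shown because they bear on how mRNA and protein levels can relate in the genes that carry them. The annotated protein-coding transcripts of mouse (GENCODE vM21, GRCm38) were searched over their whole length, coding sequence included. The pattern was a C, 5 bases, the loop CAGTG with any base but G after it, and 5 bases able to pair with the first 5. G-T pairs were allowed. It matched 4 of the 10 genes, in untranslated regions, and 222 of 21877 coding genes (1.01%) in any part of a transcript. Only the transcript's own strand was read. Each line gives 29 bases, 5′ to 3′, with the loop in capitals.
Tfrc site 1 (3' UTR, chr16:32631219-32631247, + strand): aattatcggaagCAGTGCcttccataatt
Tfrc site 2 (3' UTR, chr16:32631598-32631626, + strand): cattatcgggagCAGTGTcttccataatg
Tfrc site 3 (3' UTR, chr16:32631663-32631691, + strand): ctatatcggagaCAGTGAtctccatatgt
Tfrc site 4 (3' UTR, chr16:32631710-32631738, + strand): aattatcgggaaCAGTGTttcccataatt
Fth1 (5' UTR, chr19:9982732-9982760, + strand): ttcctgcttcaaCAGTGCttgaacggaac
Ftl1 (5' UTR, chr7:45459779-45459807, - strand): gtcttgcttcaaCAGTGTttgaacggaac
Slc40a1 (5' UTR, chr1:45925465-45925493, - strand): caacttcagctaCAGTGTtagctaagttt
The 6 genes without a match lack this pattern in their annotated protein-coding transcripts, and no more was read from that. A hairpin with an unpaired base among these 5 pairs would be missed.

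The genes lie on separate chromosomes apart from *Trf* (chr9:103204001-103230444) and *Ireb2* (chr9:54863789-54912530), which are far apart on chromosome 9. The others are *Tfrc* (chr16:32608920-32632794), *Slc11a2* (chr15:100387898-100425072), *Fth1* (chr19:9980598-9985098), *Ftl1* (chr7:45457944-45459884), *Slc40a1* (chr1:45908068-45926523), *Cp* (chr3:19957054-20009145), *Heph* (chrX:96455359-96574485) and *Aco1* (chr4:40143081-40198338). Ferritin has processed copies in the mouse genome, and reads of *Fth1* and *Ftl1* that the counting split with such copies are uncertain. Of 5 ferritin pseudogenes in the annotation 1 had rows, *Ftl1-ps2*, at a mean of 0.61 CPM in the Klotho and 2.43 CPM in the choroid plexus libraries. *Cp* shares 108 exon bases with *Hps3* on the opposite strand, which averaged 11.4, 24.1 and 12.2 CPM in Klotho, choroid plexus and hippocampal libraries. *Trf* shares 2108 exon bases with *Gm20425* on the same strand, and *Ftl1* 109 with *Gm22133*. On the opposite strand *Ftl1* shares 355 exon bases with *Gm10252* and *Heph* 29 with *Hsf3*, and *Slc11a2* also shares exon bases with *Gm5475*. Of these overlapping genes *Hps3* had rows in the tables, the others are not analysed here, and how reads of shared bases were assigned is not known. The strand setting of the counting is not given in the sources used here.

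Divided by the length of the longest coding transcript, *Fth1* was the most abundant of the 10 mRNAs in the Klotho libraries at 1417 ± 241 CPM per kb (SD, n = 17), followed by *Trf* at 148 ± 38.6 and *Ftl1* at 112 ± 22.8 CPM per kb. *Trf* lay above *Ftl1* in 11 of 17 libraries: in 0 of 4 Klko, 4 of 4 WT-y, 3 of 5 Klhet and 4 of 4 WT-o libraries. *Tfrc* (14.1 ± 3.62), *Aco1* (10.3 ± 1.48), *Ireb2* (9.37 ± 1.26) and *Slc11a2* (8.29 ± 0.93) formed a middle group whose neighbouring ranges overlapped. *Slc40a1* (3.11 ± 0.42), *Cp* (2.48 ± 0.64) and *Heph* (1.97 ± 0.39 CPM per kb) were the lowest. The export genes were therefore the least abundant per length in these libraries.

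The hippocampal libraries kept *Fth1* (1230 ± 186 CPM per kb), *Trf* (185 ± 58.2) and *Ftl1* (64.3 ± 12.5 CPM per kb; SD, n = 38) at the top. In choroid plexus *Trf* led, at 927 ± 183 CPM per kb against 617 ± 94.0 for *Fth1* (SD, n = 34), and lay above *Fth1* in 28 of 34 libraries. *Ftl1* followed in choroid plexus at 119 ± 16.0 CPM per kb. The tables were normalized separately, so levels were not tested between tables. Per kb, *Fth1* exceeded *Ftl1* by 7.28-fold to 16.5-fold in single Klotho libraries, by 3.35-fold to 8.64-fold in choroid plexus libraries and by 13.9-fold to 26.2-fold in hippocampal libraries, a ratio taken within a library.

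**Figure D1:**
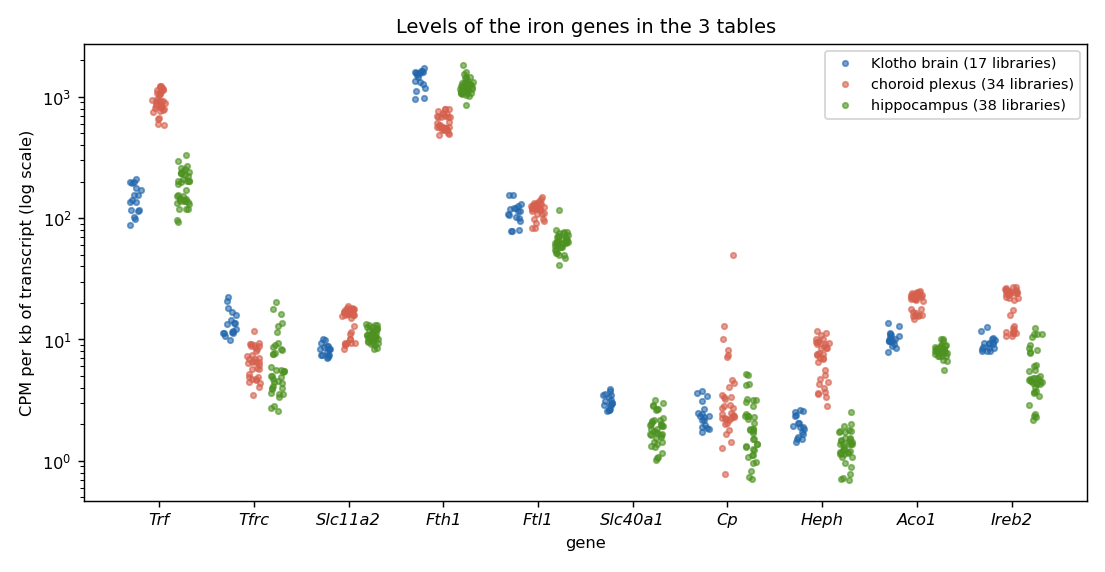
CPM per kb of transcript (log axis) of each iron gene, 1 point per library, in Klotho brain (17 libraries), choroid plexus (34) and hippocampus (38). *Trf* averaged 927 CPM per kb in choroid plexus and stood above every other gene there on average, whereas *Fth1* stood highest in both other tables.

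The Klko comparison asks what the loss of α-Klotho does at 2 months. By limma on log2(CPM + 0.5), 2 of the 10 genes passed an adjusted p of 0.05: *Trf*, which carries iron, fell, and *Ftl1*, the ferritin light chain, rose. Over all genes 11.3% passed in either direction (4.83% higher and 6.44% lower), so 2 of 10 stood close to the background. The median log2 difference was 0.14 over the 10 genes and -0.02 over all genes. At an unadjusted p under 0.05 there were 3 of the 10, with *Ireb2* added, against 28.9% of all genes. The groups did not overlap for 1 of the 10 genes, *Trf*, against 12.2% of all genes.

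*Trf* stood at 263, 254, 302 and 294 CPM in the Klko libraries, against 455, 399, 435.9 and 501 CPM in the WT-y libraries. Every Klko library lay below every WT-y library. The means were 278 ± 23.0 CPM in Klko and 448 ± 42.4 CPM in WT-y (SD, n = 4 each), a log2 difference of -0.68 ± 0.13 (SE, 95% interval -0.96 to -0.40; limma, adjusted p = 0.00792). The call held in all 30 alternatives run, with a log2 difference of -0.74 to -0.57 and an adjusted p of 0.000161 to 0.0451. Of these 30, the fit with no filter repeats the main fit, since the filter removed no gene. The fits without a Klhet or WT-o library keep the same difference and change only the spread estimate shared by all groups.

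At 9 months *Trf* stood at 348, 364, 301, 352 and 228 CPM in Klhet libraries, against 506, 506, 544 and 396 CPM in WT-o libraries. Again no library of one group reached the other. The log2 difference was -0.62 ± 0.13 (SE, 95% interval -0.89 to -0.36; limma, unadjusted p = 1.17e-04, adjusted p = 0.35), so it did not pass the threshold over all genes. The difference between the Klko and the Klhet comparison was -0.06 for *Trf* on the log2 scale (95% interval -0.45 to 0.33; limma, adjusted p = 0.95). Genotype dose and age change together between these comparisons and cannot be told apart.

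**Figure D2:**
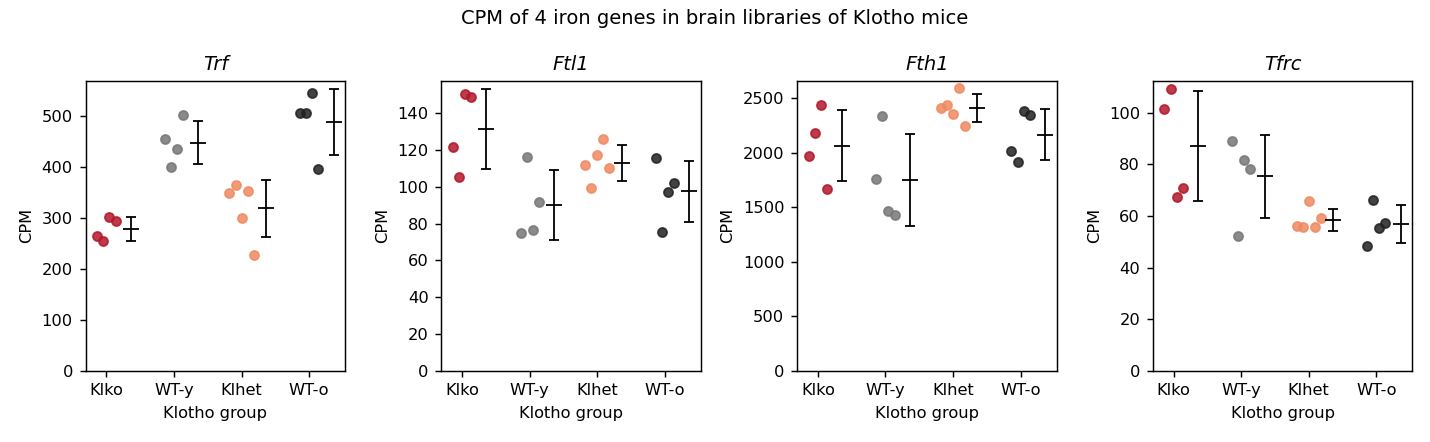
CPM of *Trf*, *Ftl1*, *Fth1* and *Tfrc* in each Klotho library (points, y axes from 0), with the group mean and SD beside them, for Klko, WT-y, Klhet and WT-o. All Klko points of *Trf* (254 to 302 CPM) lie below all WT-y points (399 to 501 CPM), and all Klhet points (228 to 364 CPM) below all WT-o points (396 to 544 CPM).

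Since both sources of *Trf* are cell types, and fewer cells of a type cannot be told apart from less RNA per cell in bulk tissue, the markers of both were set beside it. The 12 oligodendrocyte genes, led by *Mbp*, summed to 8596 to 12328 CPM in Klko and 6699 to 14445 CPM in WT-y libraries, which overlap. At 9 months they summed to 4081 to 6834 CPM in Klhet and 6210 to 7883 CPM in WT-o libraries. *Trf* amounted to 2.45% to 3.22% of that sum in Klko and 3.25% to 5.95% in WT-y libraries, and to 5.32% to 5.61% in Klhet and 5.87% to 8.15% in WT-o libraries. With the mean of these markers as a covariate, the log2 difference of *Trf* was -0.57 in Klko (limma, adjusted p = 0.00930) and -0.46 in Klhet (adjusted p = 0.67).

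The choroid plexus gene *Ttr*, a thyroid hormone carrier, stood at 245 to 5403 CPM in Klko and 2265 to 7473 CPM in WT-y libraries, and at 220 to 6723 CPM in Klhet and 3151 to 7717 CPM in WT-o libraries. The choroid plexus libraries held a median of 1.92 CPM of *Trf* for each 100 CPM of *Ttr*. Less that share, *Trf* was 150 to 259 CPM in Klko and 311 to 397 CPM in WT-y libraries, which still did not overlap. By the same subtraction it was 171 to 309 CPM in Klhet and 249 to 483 CPM in WT-o libraries, which did. The ratio was not constant among the choroid plexus libraries, which came from aged mice. Median *Trf* was 2043 CPM in the 12 libraries with 163015 to 235998 CPM of *Ttr*. It was 2546 CPM in the 22 with 102233 to 137424 CPM. No ratio but the median was tried, and the overlap after subtraction depends on it. With the choroid plexus markers as a covariate the log2 difference was -0.60 in Klko (limma, adjusted p = 0.0196) and -0.54 in Klhet (adjusted p = 0.47).

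*Tfrc*, the receptor that imports transferrin, stood at 101.5, 109, 67.2 and 70.8 CPM in Klko libraries, against 89.0, 52.3, 81.8 and 78.2 CPM in WT-y libraries. The groups overlapped, and the log2 difference was 0.21 ± 0.17 (SE; limma, adjusted p = 0.44). In Klhet libraries it was 55.5 to 65.7 CPM, against 48.3 to 66.4 CPM in WT-o libraries, with a log2 difference of 0.05 (95% interval -0.28 to 0.38). *Slc11a2*, which moves ferrous iron out of endosomes, stood at 34.6 to 41.2 CPM in Klko and 33.0 to 44.5 CPM in WT-y libraries. In the older mice its ranges were separate, at 32.9, 30.9, 32.9, 31.9 and 32.7 CPM in Klhet against 36.8, 38.6, 38.7 and 37.1 CPM in WT-o libraries, and the log2 difference of -0.23 ± 0.08 (SE; unadjusted p = 0.0143) had an adjusted p of 0.41 (limma).

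*Ftl1*, the light chain that helps iron mineralize inside ferritin, stood at 122, 105, 150.1 and 149 CPM in Klko libraries, against 75.1, 116, 76.6 and 91.9 CPM in WT-y libraries. WT-y replicate 2, at 116 CPM, lay above the lowest Klko library, so the groups overlapped. The log2 difference was 0.55 ± 0.15 (SE, 95% interval 0.24 to 0.87; limma, adjusted p = 0.0278), and it passed in 21 of 30 alternatives with an adjusted p of 0.00245 to 0.11. It did not pass without Klko replicate 3 (log2 difference 0.48, adjusted p = 0.0785, limma) or 4 (0.49, adjusted p = 0.0685), nor without WT-y replicate 1 (0.47, adjusted p = 0.0945), 3 (0.48, adjusted p = 0.0938) or 4 (0.57, adjusted p = 0.0516). In the older mice *Ftl1* stood at 99.2 to 126 CPM in Klhet and 75.4 to 115 CPM in WT-o libraries (log2 difference 0.22, 95% interval -0.08 to 0.52; limma, adjusted p = 0.52).

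The *Ftl1* transcript is short, 968 bases, and its level ran with those of other short, abundant mRNAs. The mean log2 level of 62 ribosomal protein genes, a list chosen after the values were seen, was 5.32 in Klko (library range 5.23 to 5.48) and 4.79 in WT-y (4.61 to 5.22), and 5.21 in Klhet and 4.90 in WT-o. Across the 17 libraries its Pearson r with *Ftl1* was 0.90 (Spearman rho 0.92, and r 0.90 without the 2 libraries farthest from its median), as a description of libraries that share their groups. A gene's exon length was taken as the bases of all its annotated exons merged, 1340 for *Ftl1*. With each library's trend over exon length removed, the log2 difference of *Ftl1* between Klko and WT-y was 0.39 (limma, adjusted p = 0.075).

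*Fth1*, the heavy chain that oxidizes iron as it enters ferritin, stood at 1972, 2181, 2441 and 1673 CPM in Klko libraries, against 1763, 2342, 1463 and 1426 CPM in WT-y libraries. The groups overlapped (log2 difference 0.26 ± 0.15, SE; limma, adjusted p = 0.25), as they did at 2246 to 2596 CPM in Klhet against 1917 to 2386 CPM in WT-o libraries (log2 difference 0.16, 95% interval -0.13 to 0.45). Per kb, the heavy chain exceeded the light chain by 10.4 ± 2.50 in Klko and 12.7 ± 2.12 in WT-y libraries, and by 13.9 ± 1.17 in Klhet and 14.6 ± 2.30 in WT-o libraries, as mean ratio and SD. These ratios overlapped within both pairs of groups.

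None of the export genes passed in either Klotho comparison by limma. *Slc40a1*, which encodes ferroportin, the exporter of iron, stood at 8.62 to 11.6 CPM in Klko and 8.77 to 11.4 CPM in WT-y libraries, and at 10.1 to 13.2 CPM in Klhet and 8.77 to 12.6 CPM in WT-o libraries. *Cp*, the copper oxidase ceruloplasmin, stood at 10.7 to 15.6 CPM in Klko and 8.39 to 11.2 CPM in WT-y libraries (log2 difference 0.37, 95% interval -0.09 to 0.83). *Heph*, the membrane-bound oxidase hephaestin, stood at 9.80 to 12.1 CPM in Klko and 7.16 to 12.6 CPM in WT-y libraries (log2 difference 0.30, 95% interval -0.05 to 0.65). In Klhet against WT-o the log2 difference was -0.02 for *Cp* and -0.16 for *Heph*. Of the 10 genes *Heph* had the smallest unadjusted p for the difference between the comparisons, 0.46 ± 0.23 (SE; limma, unadjusted p = 0.0616, adjusted p = 0.58).

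The iron sensors lay lower on average in both comparisons without passing. *Ireb2*, which encodes iron regulatory protein 2, stood at 48.8, 52.5, 48.5 and 53.2 CPM in Klko libraries, against 67.2, 46.7, 72.5 and 59.5 CPM in WT-y libraries. WT-y replicate 2 lay below every Klko library and the other 3 above them all, and the log2 difference was -0.26 ± 0.11 (SE; limma, unadjusted p = 0.035, adjusted p = 0.14). *Aco1*, which encodes the cytosolic aconitase that doubles as iron regulatory protein 1, stood at 37.4 to 41.8 CPM in Klko and 34.9 to 52.5 CPM in WT-y libraries. In the older mice *Aco1* stood at 32.7, 30.1, 37.1, 37.1 and 33.7 CPM in Klhet libraries, against 43.1, 38.3, 40.1 and 37.3 CPM in WT-o libraries. Those ranges were separate by a narrow margin, with a log2 difference of -0.22 ± 0.10 (SE; limma, unadjusted p = 0.0472, adjusted p = 0.44). *Ireb2* in the older mice differed by -0.08 on the log2 scale (95% interval -0.30 to 0.15).

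WT-y replicate 2 was at one end of the WT-y range for 7 of the 10 genes. Among 4 libraries a given one is often at an end, and the share over all genes was not taken. Replicate 2 held the lowest WT-y value of *Trf*, *Tfrc*, *Slc11a2*, *Aco1* and *Ireb2* and the highest of *Fth1* and *Ftl1*. Without it, 5 of the 10 genes and 3879 of all genes passed in Klko against WT-y by limma. The 3 added were *Fth1* (log2 difference 0.41, adjusted p = 0.0213), *Aco1* (-0.27, adjusted p = 0.0349) and *Ireb2* (-0.38, adjusted p = 0.00641). Replicate 2 is singled out here by its values of these genes, so leaving it out widens their differences. The added calls are a description and not separate support. In replicate 2 the trend over exon length, as the Spearman rho between a gene's deviation from its mean and its exon length, was -0.09. It was -0.32 to -0.12 in the Klko libraries and 0.24 to 0.32 in the other 3 WT-y libraries. The groups were thus apart in this trend with replicate 2 kept, by the narrow margin of -0.12 against -0.09, and further apart without it. The part of the trend in the 3 added calls was not tested.

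In Klhet against WT-o, limma called 0 of the 10 genes and 0% of all genes, edgeR on the recovered reads called 0 genes, and DESeq2 called 6 (0.0401% of all genes), of which *Trf* (adjusted p = 0.0458) was 1. At an unadjusted p under 0.05 limma gave 3 of the 10 genes (*Trf*, *Slc11a2* and *Aco1*, all lower in Klhet) and 11.3% of all genes, with 7.5% of all genes lower. These 3 were also the genes whose groups did not overlap, against 6.72% of all genes in either direction and 4.56% lower. The groups were apart in the trend over exon length too, with a Spearman rho of -0.18 to -0.05 in Klhet and -0.01 to 0.24 in WT-o libraries. The part of this trend in the lack of overlap was not tested. Between the Klko and Klhet comparisons 0 of the 10 genes differed by limma, at an adjusted p (0% of all genes) or at an unadjusted one (8.87% of all genes).

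**Figure D3:**
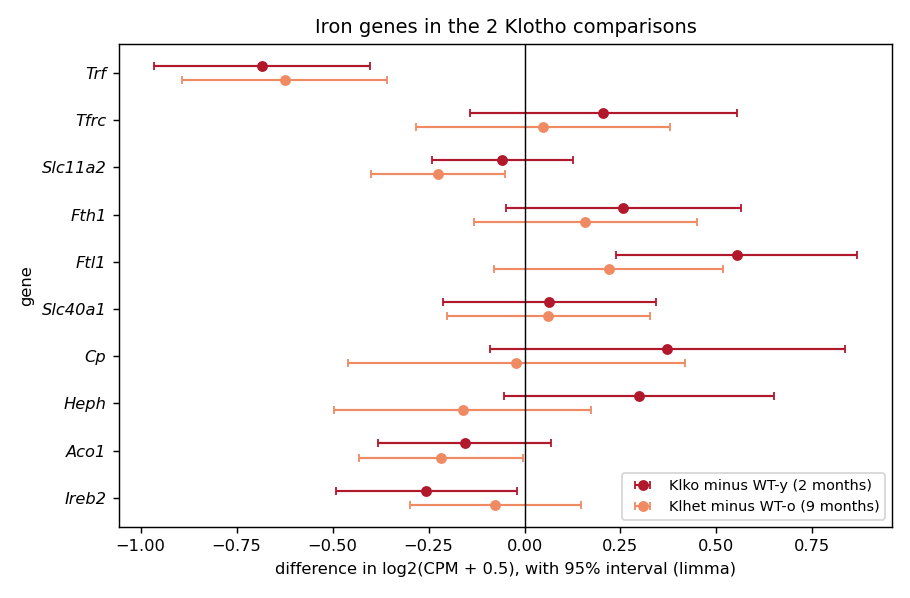
Difference in log2(CPM + 0.5) of each iron gene, Klko minus WT-y (2 months) and Klhet minus WT-o (9 months), with 95% intervals from limma; the vertical line marks no difference. *Trf* lies at -0.68 and -0.62 with both intervals below 0, and *Ftl1* at 0.55 in Klko and 0.22 in Klhet, where its interval crosses 0.

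Between the wild-type groups, WT-o at 9 months against WT-y at 2 months, limma called 0 of the 10 genes and 0.0468% of all genes. None of the 10 was called on the recovered reads by edgeR (0.0401% of all genes) or DESeq2 (0.782% of all genes). At an unadjusted p under 0.05 there were 2, against 8.01% of all genes, and for 0 of the 10 the groups did not overlap, against 2.97% of all genes. *Tfrc* stood at 48.3, 66.4, 55.4 and 57.1 CPM in WT-o libraries, against 89.0, 52.3, 81.8 and 78.2 CPM in WT-y libraries (log2 difference -0.39 ± 0.17, SE; limma, unadjusted p = 0.0321, adjusted p = 0.56). *Fth1* stood at 2019, 1917, 2386 and 2348 CPM in WT-o libraries, against 1763, 2342, 1463 and 1426 CPM in WT-y libraries (log2 difference 0.33 ± 0.15, SE; limma, unadjusted p = 0.0346, adjusted p = 0.58). The receptor and the heavy chain thus lay on opposite sides, and in both genes WT-y replicate 2 alone fell among the WT-o libraries. Without it both passed, *Tfrc* at -0.55 (limma, adjusted p = 0.0438) and *Fth1* at 0.48 (adjusted p = 0.0344), as did 583 of all genes. That library is singled out by the values of these same genes, so leaving it out widens both differences, and these calls are a description. In the trend over exon length, Spearman rho was -0.01 to 0.24 in WT-o libraries, -0.09 in WT-y replicate 2 and 0.24 to 0.32 in the other WT-y libraries. The part of this trend in these 2 calls was not tested. This comparison shares its WT-y and WT-o libraries with the comparisons above.

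In the choroid plexus of aged mice the infusions were compared to ask whether young serum, and its vesicles, changed the tissue. None of the 9 genes passed by limma in YS against sham, YS against YDS or YDS against sham, and 0% of all genes did in each of them. At an unadjusted p under 0.05 none of the 9 did either, against 2.11%, 7.51% and 1.43% of all genes in that order. In YS against YDS, edgeR on the recovered reads called none of the 9 genes and 2.93% of all genes, and DESeq2 called 1 of the 9, *Cp*, and 4.12% of all genes. In both other comparisons neither tool called any of the 9, and DESeq2 called 1 gene of the whole table in YDS against sham. The 3 comparisons share their libraries pair by pair.

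*Trf* in choroid plexus ranged over 1516 to 3172 CPM in YS (median 2280), 1688 to 3174 CPM in YDS (median 2402) and 1523 to 3014 CPM in sham libraries (median 2302). *Ftl1* and *Fth1* were as close, with medians of 120.5, 117 and 117 CPM for *Ftl1* and of 894, 838 and 839 CPM for *Fth1* in YS, YDS and sham libraries. The ranges of the 3 arms overlapped nearly whole in each of these genes. The log2 difference between YS and sham was 0.00 for *Trf* (95% interval -0.29 to 0.28), 0.01 for *Ftl1* (-0.19 to 0.20) and 0.07 for *Fth1* (-0.14 to 0.28).

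*Tfrc* ranged over 17.0 to 45.6 CPM in YS (median 38.4), 21.5 to 57.5 CPM in YDS (median 29.2) and 19.8 to 41.2 CPM in sham libraries (median 31.4), and its log2 difference between YS and sham was 0.25 (95% interval -0.11 to 0.62). *Slc11a2* had medians of 72.5, 69.6 and 70.7 CPM, *Aco1* of 85.7, 83.8 and 84.7 CPM, *Ireb2* of 131, 138 and 132 CPM and *Heph* of 38.5, 34.7 and 37.6 CPM in YS, YDS and sham libraries. For these 4 genes the log2 differences between arms lay between -0.22 and 0.12.

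*Cp* varied most. It ranged over 7.60 to 228 CPM in YS (median 14.1), 5.82 to 32.7 CPM in YDS (median 10.6) and 3.55 to 59.5 CPM in sham libraries (median 11.7). Its standard deviation was 170% of its mean over the 34 libraries. On the log2 scale it was larger than that of 98.3% of the 10673 genes with a mean of at least 5 CPM. The log2 difference was 0.75 ± 0.46 between YS and sham (SE, 95% interval -0.18 to 1.69; limma, unadjusted p = 0.111) and 0.68 ± 0.40 between YS and YDS (SE, 95% interval -0.13 to 1.49; unadjusted p = 0.0956). DESeq2 gave 1.35 for YS against YDS (adjusted p = 0.0389).

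The 2 libraries with the most *Cp* also held the highest fibroblast sums. The 5 fibroblast genes summed to 842 CPM in YS replicate 24, the library with 228 CPM of *Cp*, to 303 CPM in sham replicate 28 (59.5 CPM) and to 198 CPM in YS replicate 23 (46.4 CPM). By arm they summed to 46.3 to 842 CPM in YS, 53.4 to 245 CPM in YDS and 49.2 to 303 CPM in sham libraries. Over the 34 libraries the mean log2 level of the fibroblast genes and that of *Cp* had a Pearson r of 0.97 (Spearman rho 0.81, r 0.93 without the 2 farthest libraries), and r was 0.95 with endothelial, 0.85 with astrocyte and 0.82 with microglial genes. Without replicate 24 the log2 difference of *Cp* was 0.44 in YS against sham and 0.37 in YS against YDS. With the fibroblast markers as a covariate these were 0.13 and 0.09, and with the astrocyte markers 0.12 and -0.26. Both covariates were chosen after the values were seen. They ran with *Cp* at an r of 0.97 and 0.85, so such a fit takes out most of its variation whatever the source. The source of the *Cp* difference was not tested.

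**Figure D4:**
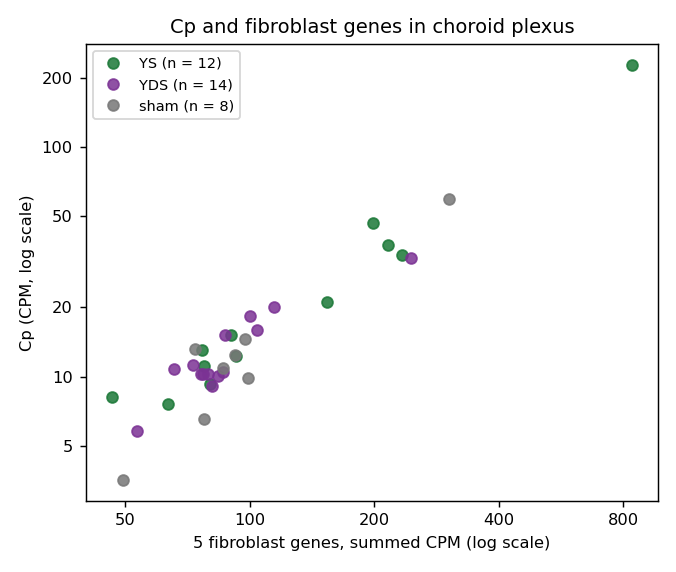
*Cp* against the summed level of 5 fibroblast genes in choroid plexus (CPM, log axes), 1 point per library, for YS (12), YDS (14) and sham (8). The points lie along 1 line, and the YS library at 228 CPM of *Cp* has the highest fibroblast sum, 842 CPM.

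The choroid plexus libraries fell into sets by *Ttr*: 12 held 163015 to 235998 CPM of *Ttr* (YS 4, YDS 5 and sham 3) and 22 held 102233 to 137424 CPM (YS 8, YDS 9 and sham 5). By the sample numbers in the labels, the 12 were replicates 1 to 7 and 9 to 13 and the 22 were replicate 8 and replicates 14 to 34, and what these numbers stand for is not given in the sources used here. The sets also differed in their trend over exon length. The Spearman rho between a gene's deviation from its mean and its exon length was -0.54 to -0.28 in the 12 libraries and 0.15 to 0.45 in the 22. The first principal component of all genes but the iron genes held 55.6% of the variance, and its scores kept the 12 libraries apart from the 22. The sets thus differed across the whole table and not only in the iron genes. Several iron genes differed between these sets more than between the arms, and the part of the length trend in this was not tested. *Ireb2* stood at 62.1 to 100.1 CPM in the 12 libraries and at 122 to 156 CPM in the 22. *Slc11a2* stood at 36.9 to 57.5 CPM in the 12 and at 65.9 to 82.9 CPM in the 22. *Heph* ranged over 13.5 to 33.6 CPM in the 12 and 31.1 to 55.6 CPM in the 22, *Aco1* over 56.7 to 83.2 CPM and 81.5 to 97.0 CPM, and *Tfrc* over 17.0 to 33.7 CPM and 23.2 to 57.5 CPM. *Ftl1* ranged over 79.7 to 125 CPM in the 12 and 104 to 144 CPM in the 22. *Fth1* went the other way, at 1011 to 1187 CPM in the 12 and 720 to 1011 CPM in the 22. These ranges are a description with no test, since the sets were drawn from the values of *Ttr*, and with a term for the sets in the fit the log2 difference of *Cp* between YS and sham was 0.71.

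In the hippocampus, limma called 0 of the 10 genes in any of the 3 comparisons, against 0.0346% of all genes in YS against sham and 0% in both other comparisons. On the recovered reads none of the 10 was called by edgeR, which called 0.00693% of all genes in YS against sham, or by DESeq2, which called 1.81% of all genes in YS against sham, 0.00693% in YS against YDS and 0.0485% in YDS against sham. At an unadjusted p under 0.05 there were 2 of the 10 in YS against sham (17.4% of all genes), 0 in YS against YDS (6.29%) and 1 in YDS against sham (12.4%).

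*Tfrc* ranged over 13.9 to 87.0 CPM in YS (median 27.1), 13.3 to 79.2 CPM in YDS (median 22.9) and 12.7 to 98.7 CPM in sham libraries (median 40.5). The arms overlapped over almost their whole range. The log2 difference was -0.73 ± 0.27 in YDS against sham (SE, 95% interval -1.28 to -0.18; limma, unadjusted p = 0.0105, adjusted p = 0.33), -0.48 in YS against sham (95% interval -1.03 to 0.07) and 0.25 in YS against YDS (95% interval -0.25 to 0.76).

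*Ireb2* ranged over 16.6 to 64.3 CPM in YS (median 26.8), 12.4 to 60.1 CPM in YDS (median 26.2) and 13.1 to 71.6 CPM in sham libraries (median 42.1), with a log2 difference of -0.48 in YDS against sham (95% interval -0.98 to 0.02) and -0.35 in YS against sham (95% interval -0.85 to 0.15). Spread on the log2 scale was ranked among the 11318 genes with a mean of at least 5 CPM. The SD of *Tfrc* over the 38 libraries was larger than that of 98.9% of these genes, that of *Cp* than 98.5% and that of *Ireb2* than 97.7%. The other sensor and the other uptake transporter were among the steadier genes: the SD of *Aco1* exceeded that of 9.3% of these genes and that of *Slc11a2* 15.2%.

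*Tfrc* and *Ireb2* moved together from library to library, with a Pearson r of 0.90 over the 38 libraries (Spearman rho 0.83). At one end of the first principal component of all other genes, which held 25.7% of the variance, stood 5 libraries, 1 YS, 1 YDS and 3 sham. In these *Tfrc* was 63.2 to 98.7 CPM and *Ireb2* 60.1 to 71.6 CPM, against 12.7 to 56.8 CPM and 12.4 to 51.7 CPM in the other 33. The 5 were sham replicates 5, 6 and 7 (24038205, 23231524 and 24123682 reads), YDS replicate 22 (24859418 reads) and YS replicate 25 (35852642 reads). The other 33 libraries had 25402409 to 40801000 reads. The part of sequencing depth in this set was not tested. Within the 33 libraries r was 0.82 (Spearman rho 0.74, and r 0.82 without the 2 farthest libraries). Without the 5 libraries the log2 difference of *Tfrc* was -0.48 in YDS against sham (limma, unadjusted p = 0.0374) and -0.22 in YS against sham, and that of *Ireb2* -0.20 and -0.07.

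**Figure D5:**
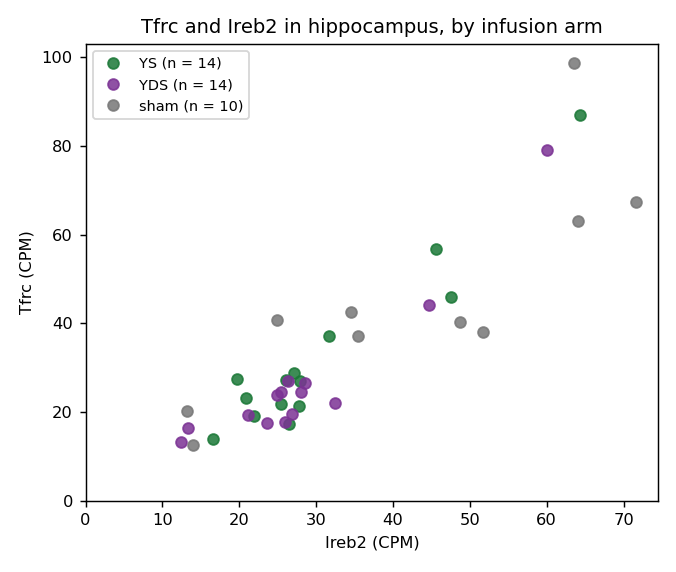
*Tfrc* against *Ireb2* in hippocampus (CPM), 1 point per library, for YS (14), YDS (14) and sham (10). The 5 libraries at the upper right, 3 of them sham, hold 63.2 to 98.7 CPM of *Tfrc* and 60.1 to 71.6 CPM of *Ireb2*.

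*Ftl1* in hippocampus ranged over 39.5 to 74.8 CPM in YS (median 58.7), 48.5 to 74.8 CPM in YDS (median 63.8) and 49.9 to 112 CPM in sham libraries (median 63.6). The highest value was a sham library that stood apart, and the log2 difference between YS and sham was -0.25 ± 0.10 (SE; limma, unadjusted p = 0.0158, adjusted p = 0.19). *Aco1* ranged over 28.9 to 38.6 CPM in YS (median 32.1), 25.3 to 33.9 CPM in YDS (median 31.3) and 21.4 to 37.4 CPM in sham libraries (median 28.8), with a log2 difference of 0.15 ± 0.07 between YS and sham (SE; limma, unadjusted p = 0.0391, adjusted p = 0.26).

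*Trf* ranged over 248 to 859 CPM in YS (median 520.1), 241 to 669 CPM in YDS (median 453) and 307 to 657 CPM in sham libraries (median 383), with a log2 difference of 0.22 between YS and sham (95% interval -0.14 to 0.57). It ran with the oligodendrocyte markers, at a Pearson r of 0.65 over the 38 libraries (Spearman rho 0.70, r 0.64 without the 2 farthest libraries). In the Klotho libraries the same r was 0.42 over 17 libraries and 0.05 without the 2 farthest, so the relation there rested on those libraries. *Fth1* had medians of 1801, 1830 and 1786 CPM and *Slc11a2* of 46.7, 48.6 and 45.4 CPM in YS, YDS and sham libraries.

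The export genes were the least abundant per length in hippocampus too. *Cp* ranged over 3.21 to 23.3 CPM in YS (median 10.3), 3.34 to 19.5 CPM in YDS (median 6.64) and 3.76 to 23.8 CPM in sham libraries (median 11.7). *Slc40a1* had medians of 5.46, 5.95 and 6.83 CPM and *Heph* of 6.19, 6.50 and 6.37 CPM in YS, YDS and sham libraries. The arms overlapped in each, and the largest log2 difference among them was -0.45 for *Cp* in YDS against sham (SE 0.27; limma, unadjusted p = 0.107).

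Beyond these 10, 75 other genes of iron handling were listed from textbook knowledge, of which 62 had values in the Klotho, 65 in the choroid plexus and 62 in the hippocampal libraries. In Klko against WT-y, 5 rose, 1 fell and 56 did not pass by limma, with a median log2 difference of 0.04 against -0.02 over all genes. The share that passed stands beside 11.3% of all genes. *Hscb*, a co-chaperone of iron-sulfur cluster assembly, averaged 9.33 CPM in Klko and 5.59 CPM in WT-y libraries (log2 difference 0.69 ± 0.14, SE; adjusted p = 0.00837, limma). *Slc25a28*, a mitochondrial iron importer, averaged 35.0 CPM in Klko and 25.8 CPM in WT-y libraries (0.45; adjusted p = 0.0174). *Alad*, an early enzyme of heme synthesis, averaged 36.4 CPM in Klko and 26.0 CPM in WT-y libraries (0.52; adjusted p = 0.0274). *Tfr2*, a second transferrin receptor, averaged 9.40 CPM in Klko and 5.99 CPM in WT-y libraries (0.60; adjusted p = 0.0365). *Epas1*, an oxygen-sensing transcription factor whose mRNA carries an iron-responsive element, averaged 280.0 CPM in Klko and 208 CPM in WT-y libraries (0.43; adjusted p = 0.0204). *Slc39a14*, an importer of zinc and unbound iron, was the 1 that fell, at 25.6 CPM in Klko and 33.4 CPM in WT-y libraries (-0.37; adjusted p = 0.0333).

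By list, those that rose were 1 of 10 uptake genes (*Tfr2*), 1 of 15 heme genes (*Alad*), 2 of 21 genes of mitochondrial iron and iron-sulfur clusters (*Hscb* and *Slc25a28*) and 1 of 5 genes of chaperones, ferritin turnover and iron sensing (*Epas1*), and the 1 that fell was an uptake gene (*Slc39a14*). None passed among 4 genes of the hepcidin axis and 7 of cytosolic iron-sulfur assembly. In the other comparisons limma called none of the other iron genes, and the genes with the smallest unadjusted p are given as values. They were *Pcbp2* (log2 difference -0.15, p = 0.0247), an iron chaperone, in Klhet against WT-o, with *Alad* (0.31, p = 0.0331) and *Slc48a1* (-0.16, p = 0.0396). For WT-o against WT-y they were *Iscu* (0.18, p = 0.0438), the scaffold of iron-sulfur clusters, *Alad* (0.29, p = 0.0512) and *Bmp6* (0.68, p = 0.0554). For the difference between the Klko and Klhet comparisons they were *Hscb* (0.53, p = 0.0122), *Slc25a28* (0.39, p = 0.0178) and *Tfr2* (0.57, p = 0.028).

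In choroid plexus they were *Slc11a1* (0.42, p = 0.0359), the iron transporter of phagocytes, *Lcn2* (0.87, p = 0.0844) and *Tmprss6* (-0.45, p = 0.196) for YS against sham. For YS against YDS they were *Slc11a1* (0.57, p = 0.00153, adjusted p = 0.30), *Lcn2* (1.11, p = 0.0125), a carrier of siderophore-bound iron, and *Cisd1* (-0.08, p = 0.11). For YDS against sham they were *Tmprss6* (-0.53, p = 0.117), *Abcb8* (-0.07, p = 0.138) and *Flvcr1* (0.13, p = 0.148). In hippocampus they were *Iscu* (-0.29, p = 0.00207, adjusted p = 0.0942), *Ciapin1* (0.24, p = 0.00325) and *Cisd1* (-0.24, p = 0.00428) for YS against sham. *Ciao2b* (-0.31, p = 0.0094), *Cisd1* (-0.19, p = 0.0133) and *Fdx2* (-0.23, p = 0.0224) came first for YS against YDS, and *Slc39a14* (0.26, p = 0.00387), *Ciapin1* (0.23, p = 0.00401) and *Isca1* (0.20, p = 0.00548) for YDS against sham. All of these are log2 differences with unadjusted p-values from limma, and none passed after adjustment.

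The genes whose levels ran closest to each iron gene were found by Pearson r of log2(CPM + 0.5) over all libraries of a table, groups pooled, among genes with a mean of at least 5 CPM. For *Trf* these were *Cntn2* (r = 0.97), *Creb3l2* (0.91) and *Gpr37* (0.91) over the 17 Klotho libraries, and *Galnt6* (0.92), *Myrf* (0.92), a regulator of myelin genes, and *Mag* (0.88), a myelin protein, over the 38 hippocampal libraries. In choroid plexus, over 34 libraries, the nearest to *Trf* was *Slc39a4* (0.73). For *Ftl1* they were *Rps20* (0.94), *Gm8942* (0.94) and *Rplp2* (0.93) in the Klotho libraries, the first and last being ribosomal protein genes, and *Pcbp4* (0.85), *C1qc* (0.84) and *Apoe* (0.82) in hippocampus.

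For *Fth1* the nearest in hippocampus were *Npc2* (0.86), *Gfap* (0.84) and *Bcas1* (0.83). For *Tfrc* in hippocampus they were *Eif5* (0.95), *Lztfl1* (0.95) and *Snx5* (0.94), and for *Ireb2* *Atad1*, *Fyttd1* and *Cul3* (0.97 each). In choroid plexus the nearest to *Ireb2* were *Nedd4*, *Kif5b* and *Pja2* (0.99 each), and those to *Cp* were *Chst15* (0.97), *Lamc3* (0.97) and *Adgra2* (0.97). *Slc40a1* in hippocampus ran closest to *P2ry12* (0.75), a microglial receptor. Over all iron genes, the nearest gene had an r of 0.71 to 0.97 in the Klotho, 0.73 to 0.99 in the choroid plexus and 0.73 to 0.97 in the hippocampal libraries.

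Among the iron genes themselves, *Slc11a2* and *Ireb2* (r = 0.94) and *Aco1* and *Ireb2* (r = 0.94) ran together over the 34 choroid plexus libraries, whose sets by *Ttr* they share, while *Fth1* ran against *Slc11a2* (r = -0.89). In the Klotho libraries *Slc11a2* and *Aco1* ran together (r = 0.86, 17 libraries) and *Fth1* ran against both (r = -0.84 with *Slc11a2* and -0.82 with *Aco1*).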

How the data were processed

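RNA was sequenced from the brain of Klotho mice and from choroid plexus and hippocampus of infused mice. Subread was the authors' aligner (mouse build mm10) and featureCounts their counter, and the deposited tables hold CPM, with 1 column per library. Library totals, recovered from the size of 1 read (100% of values within 0.05 of a whole number of reads), were 26338890 to 40229041 reads (Klotho), 27165663 to 46836730 (choroid plexus) and 23231524 to 40801000 (hippocampus). Groups came from the labels, and infusion arms from the column headers.

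Differences in log2(CPM + 0.5) were tested with limma 3.58.1 (trend, two-sided; R 4.3.3), 1 fit per table with all its groups, for genes with at least 0.5 CPM in 4 libraries, which removed no gene. P-values were adjusted over all genes of a table by Benjamini-Hochberg, with a threshold of 0.05. On this scale a fold change understates that of low genes. Alternatives were other pseudocounts, filters and normalizations, edgeR 4.0.16 and DESeq2 1.42.0 on the recovered reads, covariates, and leaving out libraries. Alternatives on sets of infusion libraries, on choroid plexus replicate 24 and with fibroblast or astrocyte covariates in choroid plexus were chosen after seeing the data. The iron genes, the other lists and the tests were chosen with earlier results of these data known. All 10 genes are reported. Of the other iron genes, at most 6 in each direction that passed are named, or else the 3 with the smallest p. The test was checked on simulated data.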

Additional observations from a re-analysis of the deposited data

Results flagged for a closer look

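In 59 groups of 4 to 10 libraries, taken gene by gene, 4 held a value far from the rest, where chance gives about 1 in 20. *Cp* was 17.0 CPM in WT-o replicate 1, and the next WT-o library had 9.85 CPM. *Cp* was 59.5 CPM in choroid plexus sham replicate 28, against 14.6 CPM in the next sham library, and that library also held the highest fibroblast sum of the sham libraries (303 CPM). In hippocampus, sham replicate 33 held both *Fth1* at 2745 CPM (next 1979 CPM) and *Ftl1* at 112 CPM (next 77.5 CPM). The microglial genes summed to 796 CPM in that library and to 355 to 545 CPM in the other sham libraries. Their part in these values was not tested.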

How the results depend on the processing

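Of 1925 values of single genes under alternatives, 1815 kept their direction and their side of the threshold, 94 changed sign with no call in either, 9 lost a call, 7 gained one and 0 reversed a call. These values include fits with no filter, which repeat the main fit. They also include Klotho fits without a library outside the groups compared, which keep the same difference. In Klko against WT-y, 2 of the 10 genes passed. There was 1 (*Trf*) when only the 2 groups were fitted, with the replicate block, with oligodendrocyte markers as a covariate and with the length trend removed. Leaving out 1 library gave 1 to 5 genes, with *Ftl1* lost without Klko replicate 3 or 4 or WT-y replicate 1, 3 or 4. DESeq2 gave 1 gene in Klhet against WT-o (*Trf*) and 1 in choroid plexus YS against YDS (*Cp*), where limma gave 0. Leaving out 1 library gave 0 to 2 genes in WT-o against WT-y.

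Klotho libraries with the same replicate number did not deviate together (r of -0.48 to -0.08 for Klko and WT-y, and of -0.23 to 0.02 for Klhet and WT-o). These numbers come from the labels, and the column headers number some of the libraries otherwise. Pairing of animals was therefore neither shown nor excluded. With the replicate block 777 genes passed in Klko against WT-y, against 1687 without it. Over all genes that comparison gave 20 calls with only its 2 groups fitted, 1051 with the oligodendrocyte covariate, 947 with the length trend removed, 2497 by DESeq2 and 464 to 3879 when 1 library was left out. Counts of all genes also moved under DESeq2 in WT-o against WT-y (117, against 7), the difference between the Klotho comparisons (48, against 0), choroid plexus YS against YDS (563, and 400 by edgeR, against 0) and hippocampal YS against sham (262, against 5), the last also without the 5 libraries at the end of the first component (173). The cause was not tested. At 23.2 to 46.8 reads per CPM, counting error weighs most on *Cp*, *Heph* and *Slc40a1*, whose lowest values were 3.21, 3.29 and 3.45 CPM.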
